A study of Mus musculus with 4 samples.

Results

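Gene expression of CD25hi Foxp3+ T cells was compared with that of CD25- Foxp3- T cells, the classical regulatory population against the conventional one, across all genes of a whole-genome array. The comparison used 2 of the 4 arrays of the series, those whose sample titles name these sorts, and the CD25lo Foxp3+ and CD25+ Foxp3- arrays are printed beside them for context. All 4 populations came from Foxp3-GFP knock-in mice, in which green fluorescent protein (GFP) expressed from the Foxp3 gene marks the cells that transcribe it, so both groups compared carried the reporter allele. Per the labels, the animals were B6/129 F2 males aged 5 to 8 weeks, and spleen and lymph node cells of 25 mice were pooled. CD4+ cells were enriched by magnetic removal of cells bearing DX5, NK1.1, CD11b, B220 or CD8 and sorted by GFP and CD25. The total RNA passed through 2 rounds of amplification, and each population was hybridised to 1 Affymetrix Mouse Genome 430 2.0 array. With 1 array a side no spread between animals or preparations can be estimated, so every difference below is a size and none carries a test. The number of arrays limits the precision.

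Regulatory T (Treg) cells restrain immune responses and self-reactivity, and Foxp3 is the transcription factor that defines them. CD25, encoded by Il2ra, is the IL-2 receptor's alpha chain, and with the beta and common gamma chains it forms the high-affinity receptor through which IL-2 activates JAK kinases and STAT5. Treg cells act on other cells through surface molecules such as CTLA-4, through cytokines such as interleukin 10, and through ectoenzymes that turn extracellular ATP into adenosine. Conventional CD4+ T cells without CD25 are for the most part resting cells that circulate through lymphoid organs and depend on interleukin 7.

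The values are deposited intensities on a linear scale, 1 per probe set, and a level is given as an intensity throughout. Readings below 10.1, the 40th percentile over all probe sets and arrays, were raised to that floor. A probe set was taken as measured when its highest value over the 4 arrays reached the 60th percentile, 32.5, which is called the filter intensity below. Each gene was read from its measured probe set with the highest mean log2 intensity, and 9622 of the 18194 genes on the array were measured. A gene was called higher or lower at a 2-fold difference, and where 1 of the arrays was at the floor the fold is a bound, written as at least. Where 4 intensities are given without names, the first pair is of Foxp3+ cells, CD25hi and then CD25lo, and the second of Foxp3- cells, CD25+ and then CD25-. Where 2 are given, they are those of CD25hi Foxp3+ and then CD25- Foxp3- cells.

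The sort markers followed the labels. The Foxp3 intensities were 1308, 1117, 16.8 and 17.6, the last pair below the filter intensity, and CD25hi cells stood 74.4-fold above CD25- Foxp3- cells. Il2ra read 1562, 288, 283 and 22.3, a 70.0-fold difference between the first and the last, and its second probe set read 417 and 9.56. Both genes were used for sorting, so they check the labels, are no finding and stand in no list count or median. T cell identity genes were high on both sides, with Cd4 at 2455 and 2948, Cd3g at 3168 and 4356 and the pan-leukocyte phosphatase Ptprc at 15018 and 15359. In 1 respect the arrays went against the labels. Xist, which is made from an inactive X chromosome, read 4098, 3182, 3682 and 2564 on the 4 arrays, although the labels name male mice. The Y-linked genes Eif2s3y, at 1124, 1130, 1386 and 768, Kdm5d, at 98.2, 135, 119 and 62.9, and Uty, at 58.8, 80.4, 73.7 and 43.0, were read on the same arrays.

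The arrays shared a scale, with medians between 15.03 and 15.63 and between 39.7% and 40.3% of probe sets at or above the filter intensity. The ratio of 3' to 5' probe sets, which rises as RNA or its copies shorten, was 1.94 and 2.29 for Actb and 2.40 and 3.21 for Gapdh. All 18 probe sets for the hybridisation spike controls, which are added in a fixed amount to each sample, read higher on the CD25hi Foxp3+ array, by a median of 1.20-fold. On the deposited scale the median gene differed by 0.0161 on the log2 scale, and after scaling on the spike controls, an alternative added after the data were seen, by -0.253. Whether RNA length or hybridisation bears on any single gene was not tested. The 15 measured housekeeping genes, ribosomal proteins and elongation factors among them, included none past 2-fold, with Eef1a1 at 27252 and 27714 and Rplp0 at 23042 and 24250.

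Of the 9622 measured genes, 682 (7.09%) read at least 2-fold higher in CD25hi Foxp3+ cells and 360 (3.74%) at least 2-fold lower, Foxp3 and Il2ra among the former. Together they made 1042 genes (10.8%), and 65.5% of them were higher. That split depended on the scale, since scaling on the spike controls gave 440 higher and 628 lower genes, 41.2% higher. Most genes lay close to equality. The differences of 7334 genes (76.2%) were within 1.5-fold, the quartiles of all differences were -0.241 and 0.328 on the log2 scale, and the Pearson correlation of log2 intensities was 0.942 across genes, which are not independent replicates. At 4-fold there were 171 genes higher and 107 lower, at 8-fold 60 and 37, and at 16-fold 15 and 13. The gene list counts below are to be read against the shares at 2-fold over all measured genes, 7.09% higher and 3.74% lower.

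**Figure D1:**
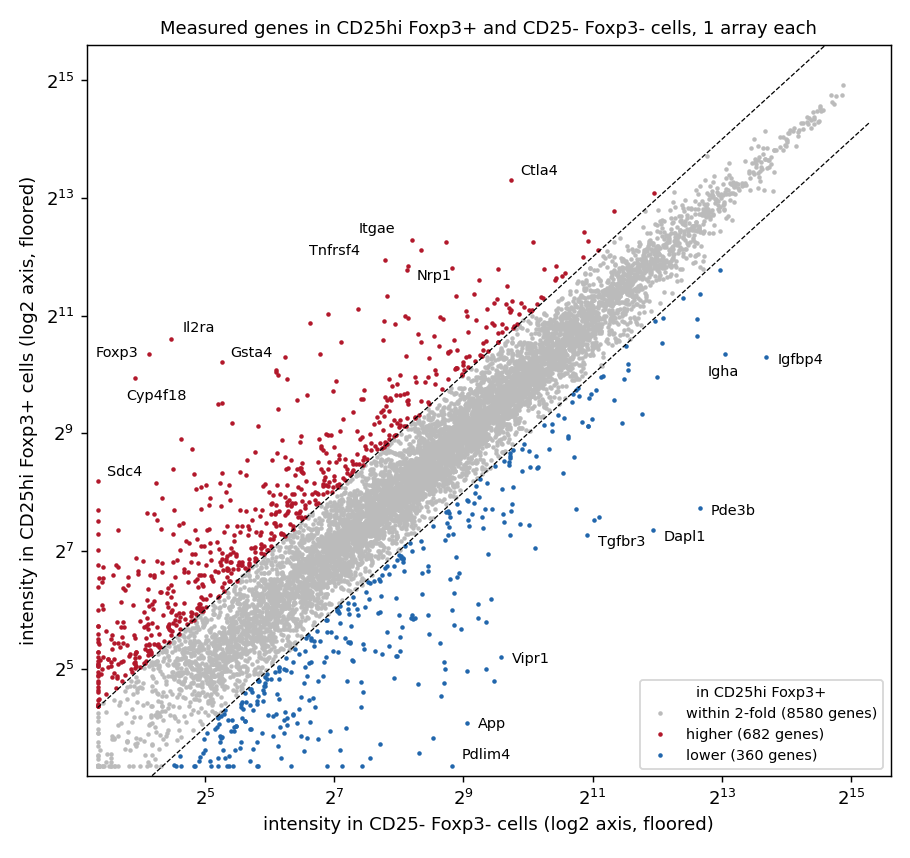
Each point is 1 of the 9622 measured genes, with its intensity in CD25- Foxp3- cells on the horizontal axis and in CD25hi Foxp3+ cells on the vertical axis, both log2 axes with values under 10.1 raised to it. Dashed lines mark 2-fold; 682 genes lie above the upper line and 360 below the lower one, with Foxp3, Il2ra and Cyp4f18 farthest above and Pdlim4, App and Pde3b far below.

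The share of called genes depended on brightness. In the dimmest tercile of genes, with mean intensities from 10.1 to 157, 12.9% were called higher and 7.08% lower. In the brightest tercile, from 616 to 30400, the shares were 3.09% and 1.62%. A gene that passed the filter only through the array where it was high was kept because of that high reading, which favours a call. The 8653 genes at or above the filter intensity on both arrays were therefore counted apart, and 429 of them were higher and 215 lower. Another probe set of the same gene was available for 248 of the higher genes and was past 2-fold in the same direction for 176 (71.0%), in the same direction below 2-fold for 63, and level or opposite for 9, with none past 2-fold the other way. For the lower genes the numbers were 109, 70 (64.2%), 32 and 7. Past 4-fold, 56 of 64 higher genes and 28 of 32 lower genes had such a second reading past 2-fold in the same direction. Second probe sets read the same RNA, so they bear on the probes and not on the cells.

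Sorted populations can hold cells of other types, and many but not all markers of those types were lower in CD25hi Foxp3+ cells. Of the 360 lower genes, 34 were markers of other cell types, against 1 of the 682 higher genes. Over all measured genes 3.74% were lower and 7.09% higher. Of 17 measured CD8 T and NK cell markers 13 were lower, of 13 myeloid and dendritic cell markers 9, of 9 B cell markers 5 and of 6 red cell and platelet markers 5. At or above the filter intensity on both arrays, 8 of 9 CD8 T and NK cell and 4 of 6 myeloid markers were lower. For B cell markers it was 2 of 5, and for red cell and platelet markers 2 of 3. The summed intensities of these lists were 1059 and 3957 for CD8 T and NK cells, 1316 and 2445 for myeloid cells, 9254 and 15480 for B cells, and 1551 and 2139 for red cells and platelets. Several defining markers were below the filter intensity on all arrays, among them Cd79a, Pax5 and Ebf1 of B cells, Itgam and Itgax of myeloid cells and Hba-a1 of red cells. Only 3 gamma delta T and NKT cell markers were measured and none was past 2-fold. Of 9 MHC class II and loading genes 3 were lower, with a median log2 difference of 0.076. Of 4 stromal, endothelial and epithelial markers none was lower and 1 was higher. In bulk RNA, fewer cells of a type and less RNA per cell cannot be told apart, and the part of other cells in the lower genes was not tested. Without the marker lists of other cells 9563 genes were left, 681 of them higher and 326 lower.

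The regulatory T cell genes were the group in which the 2 populations stood farthest apart. Of 40 measured genes known from profiling of such cells, 39 read at least 2-fold higher in CD25hi Foxp3+ cells and none lower, with a median log2 difference of 3.39 against 0.0161 over all genes. Among the 30 that were at or above the filter intensity on both arrays, 29 were higher. The list was drawn from knowledge of cells sorted in this way and with earlier results of these data known, so its direction is not independent evidence. Socs3, a cytokine signalling inhibitor, was the member left, at 1364 and 1506. Scaling on the spike controls left 39 higher.

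**Figure D2:**
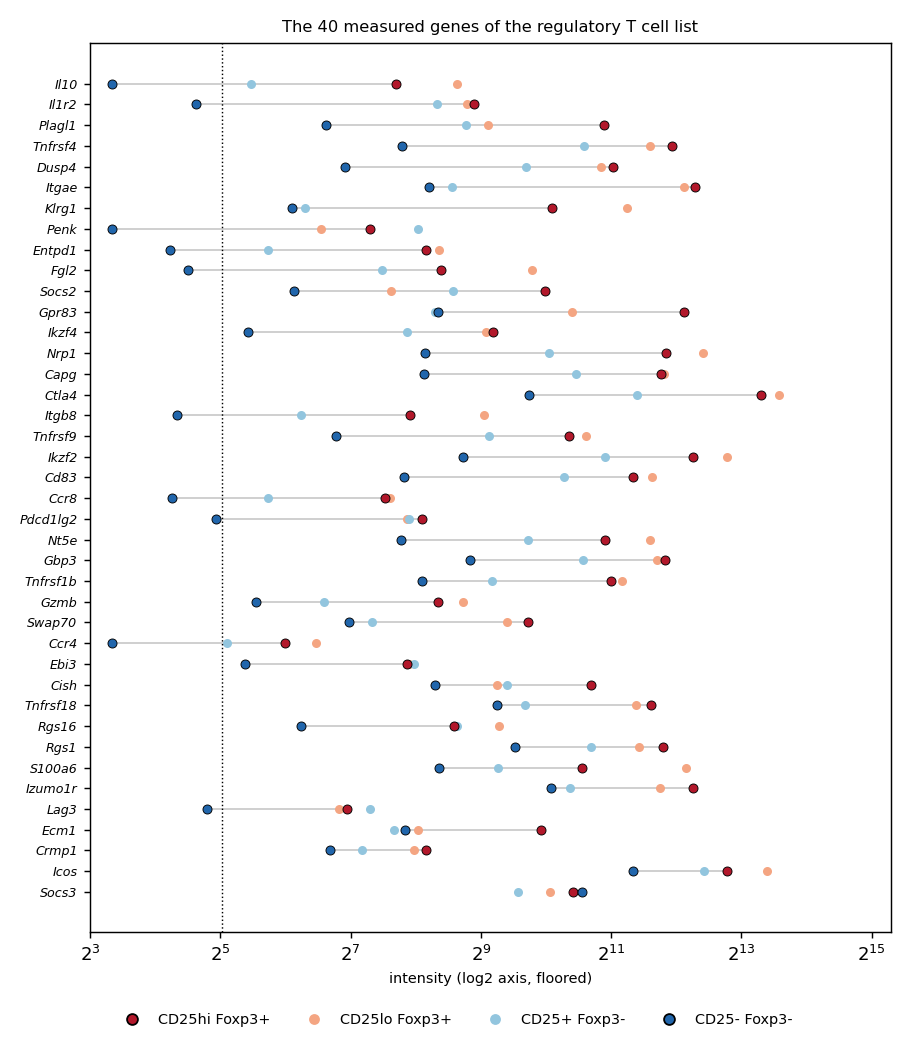
Each row is 1 of the 40 measured genes of the regulatory T cell list, ordered by the difference, with its intensity in the 4 populations on a log2 axis (values under 10.1 raised to it, dotted line at the filter intensity of 32.5, grey bars joining CD25hi Foxp3+ and CD25- Foxp3- cells). In 39 rows the CD25hi Foxp3+ point lies at least 2-fold to the right of the CD25- Foxp3- point, and Socs3 is the exception.

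Surface receptors led the list in brightness. Ctla4, the inhibitory receptor for CD80 and CD86, read 10132, 12173, 2682 and 852, 11.9-fold higher. Itgae, the alpha chain of the integrin that binds E-cadherin, read 4994, 4421, 377 and 296, 16.9-fold higher, and its second probe set read 3588 and 182. Both were high in the Foxp3+ pair, and Itgae was close to equal in the Foxp3- pair. The orphan receptor Gpr83 read 4426, 1350, 315 and 323, 13.7-fold higher, with 4786 and 299 on a second probe set. Izumo1r, which encodes folate receptor 4, read 4874, 3441, 1324 and 1079, 4.52-fold higher, and Nrp1, the co-receptor for semaphorins, 3683, 5447, 1053 and 281, 13.1-fold higher. Gpr83 set CD25hi cells apart from the other Foxp3+ cells as well, whereas Nrp1 was brightest in CD25lo Foxp3+ cells. Klrg1, an inhibitory lectin-like receptor of differentiated lymphocytes, read 1085, 2429, 79.1 and 68.4, 15.9-fold higher, and likewise had its highest level in CD25lo Foxp3+ cells.

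Among transcription factors of the Treg and helper lineages, 13 of 39 measured genes were higher and 4 lower, with Plagl1 and the Ikaros family members Ikzf4 and Ikzf2 farthest apart. Ikzf2, which encodes Helios, read 4891, 7034, 1917 and 424, 11.5-fold higher, and 2318 and 138 on a second probe set. Ikzf4, which encodes Eos, a partner of Foxp3 in gene repression, read 579, 543, 234 and 42.7, 13.6-fold higher. Ikzf3, the family member Aiolos, stood 2.34-fold higher at 1188 and 508, and Ikzf1 read 3817 and 6023, within 2-fold. Plagl1, a zinc-finger factor that is imprinted in many tissues, read 1890, 553, 438 and 98.2, 19.2-fold higher and highest in CD25hi Foxp3+ cells. Its second probe set was far dimmer, at 40.9 and 10.7, a log2 difference of 1.94 against 4.27. Factors of effector Treg cells were also higher: Prdm1, which encodes Blimp-1, at 280, 627, 74.7 and 41.2, and Irf4 at 912, 900, 1579 and 250. Ahr, the aryl hydrocarbon receptor, read 950 and 131, and Nfil3 218 and 38.0. Maf read 1942, 6040, 3904 and 585, Rora 574, 1278, 589 and 195, and Hif1a 3695, 8184, 5752 and 1376. Batf, at 1101 and 474, and Egr2, at 975, 1279, 1370 and 432, were closer to the 2-fold line. Scaling on the spike controls took both and Ikzf3 below it. Irf4, Maf, Hif1a and Egr2 were higher in CD25+ Foxp3- than in CD25hi Foxp3+ cells, and Rora was near equal in these populations.

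The 4 lower factors of that list were Lef1, a partner of beta-catenin in naive T cells, at 607, 491, 526 and 2026, Id2, an inhibitor of E proteins, at 970, 1589, 9203 and 2858, Runx3, at 78.9 and 180, and Eomes, at 50 and 106. Lef1 was low in every population but CD25- Foxp3- cells. Runx3 and Eomes are known from CD8 T and NK cells, and the part of such cells in their readings was not tested. Eomes read 35.8 in CD25lo Foxp3+ and 411 in CD25+ Foxp3- cells. The brightest members within 2-fold included Foxo1 at 2974 and 2617, Satb1 at 4124 and 6746 and Cbfb at 3411 and 4442, and at the dim end Tbx21, which encodes T-bet, was below the filter intensity on both arrays, at 20.5 and 20.2.

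The genes with a part in suppression were for the most part higher, 13 of 18 measured members, with 2 lower. Il10 read 207, 395, 44.1 and 8.55, at least 20.5-fold higher. Entpd1, which encodes CD39 and hydrolyses extracellular ATP and ADP, read 286, 327, 53.1 and 18.8, 15.2-fold higher. Nt5e, which encodes CD73 and completes the path to adenosine, read 1914, 3086, 847 and 219, 8.74-fold higher. Both ectoenzyme genes were at least as high in CD25lo Foxp3+ cells. Fgl2, a secreted fibrinogen-like protein, read 335, 878, 179 and 22.6, 14.8-fold higher. A second probe set of Fgl2 read 132 and 32.8, a log2 difference of 2.01 against 3.89. Gzmb, the cytotoxic protease granzyme B, read 323, 422, 96.4 and 46.6, 6.93-fold higher. Ebi3, a chain of the cytokines IL-27 and IL-35, read 233, 239, 251 and 41.6, and Lag3, a CD4-like receptor for MHC class II, 123, 113, 157 and 27.7. These last were as high in CD25+ Foxp3- cells as in Foxp3+ cells. Itgb8, whose integrin activates latent TGF-beta, read 240, 528, 75.7 and 20.2, 11.9-fold higher, while Tgfb1 itself read 176 and 79.2, 2.23-fold higher, and fell short of 2-fold after spike control scaling.

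Part of the suppression list rests on dim readings, since 11 of its 18 members were at or above the filter intensity on both arrays and 6 of these were higher. Il1r2, the decoy receptor for interleukin 1, read 478, 439, 322 and 24.6, 19.5-fold higher. Penk, the precursor of enkephalins, read 157, 93.2, 263 and 7.1, at least 15.5-fold higher, and was highest in CD25+ Foxp3- cells. The galectin gene Lgals1 was bright on both arrays, at 8712 and 3963, 2.20-fold higher. Gzma, at 60.4 and 348, and Prf1, the pore-forming perforin, at 40.5 and 176, were the lower members. Both are also markers of CD8 T and NK cells, whose part in these readings was not tested.

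In the IL-2 receptor pathway the beta chain and some of the feedback genes were higher, and the kinases and STAT genes between them were within 2-fold. Il2rb, the beta chain shared with the interleukin 15 receptor, read 1053, 459, 257 and 68.5, 15.4-fold higher, with 116 and 7.71 on a second probe set. The feedback inhibitors Cish, at 1656, 610, 672 and 313, and Socs2, at 1017, 197, 382 and 70.2, were 5.30-fold and 14.5-fold higher, and Socs1 was 3.21-fold higher at a dim 41.1 and 12.8. These genes had their highest reading in CD25hi Foxp3+ cells, in the same array as Il2ra. The other measured SOCS genes, Socs3, Socs4, Socs6 and Socs7, were within 2-fold, at 1364 and 1506, 335 and 268, 98.9 and 60.1, and 658 and 617. Among signalling genes Jak3 was close to the 2-fold line at 686 and 349, with Stat5b at 1524 and 1307, Jak1 at 4266 and 5384, Jak2 at 1648 and 2538, Stat4 at 1563 and 1911 and the survival gene Bcl2 at 2653 and 2187. In all, 5 of 27 measured members were higher and 1 lower, the kinase gene Pim2 at 133 and 332. Socs5, at 178 and 67.2, was called from 1 probe set, and a second probe set read 51.9 and 45.2.

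Receptors of the TNF superfamily were among the brightest differences. Of 26 measured members of the list, which also holds ligands and TRAF genes, 7 were higher and 2, both ligands, lower. Tnfrsf4, which encodes OX40, read 3929, 3087, 1539 and 221, 17.8-fold higher. Tnfrsf18, which encodes GITR, read 3129, 2672, 815 and 607, 5.15-fold higher. Tnfrsf9, a costimulatory receptor induced by activation, read 1303, 1558, 556 and 110, 11.8-fold higher, and Tnfrsf1b, the type II TNF receptor, 2051, 2289, 575 and 274, 7.48-fold higher. All 4 were high in both Foxp3+ populations. Lta, the ligand lymphotoxin alpha, behaved otherwise, at 336, 65.7, 341 and 120. Tnfsf10, which encodes TRAIL, read 219 and 80.5. On the lower side, Fasl, the ligand of the death receptor Fas, read 53.8, 77.5, 514 and 461, 8.58-fold lower, and was low in both Foxp3+ populations. Tnfsf14 was lower at a dim 15.7 and 35.6.

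Of 25 measured costimulatory and checkpoint genes 9 were higher and none lower. Among the 21 at or above the filter intensity on both arrays, 5 were higher. Icos, a costimulatory receptor of the CD28 family, was bright everywhere, at 7042, 10804, 5473 and 2574, 2.74-fold higher, while Cd28 itself was level at 2596 and 3108. Pdcd1lg2, a ligand of PD-1, read 272, 232, 239 and 30.6, 8.86-fold higher, and was near equal in the 3 populations other than CD25- Foxp3- cells. Cd200 read 528, 473, 909 and 136, Slamf1 1077, 1312, 727 and 376, and Cd80 47.8, 89.7, 7.33 and 15.0. Havcr2, at 42.7 and 19.4, and Cd200r1, at 148 and 66.1, lost their calls under scaling on the spike controls. Cd83, an activation marker of T cells and dendritic cells on the Treg list, read 2584, 3160, 1236 and 226, 11.4-fold higher.

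Windows upstream of the gene starts were read to show what the leading genes carry there. For each gene the 250 bases before its first listed start were taken from the RefSeq promoter table of GRCm38.p6, which held 7890 of the measured genes. Short forms of 5 motifs were searched on both strands: GTAAACA for forkhead factors, the family of Foxp3, TTCNNNGAA for STAT factors, TGANTCA for AP-1, TGGAAAA for NFAT and CTTTGAT for TCF/LEF. The forkhead letters stood in 2.22% of all windows, 3.23% of 526 windows of higher genes and 2.64% of 265 windows of lower genes. The STAT letters stood in 5.91%, 7.22% and 3.77%, the AP-1 letters in 3.93%, 5.51% and 5.66%, the NFAT letters in 4.04%, 3.80% and 4.53%, and the TCF/LEF letters in 2.34%, 1.71% and 3.02%. A match is a string of letters, not a bound site, and no test was made of these shares. The 8 windows below hold forkhead or STAT letters and were drawn, in both directions, from the genes with the largest and the brightest differences and the called genes of the Treg, resting T cell and IL-2 receptor lists. They are shown 5′ to 3′ on the gene's strand, with every match to any of the 5 motifs in capitals.

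The forkhead letters were found upstream of Gbp3, an interferon-inducible guanylate-binding protein (chr3:142559794-142560043, + strand, 239 to 233 bases before the start), of Swap70, a regulator of Rac and F-actin (chr7:110221453-110221702, + strand, 107 to 101 bases before), and of Dapl1 (chr2:59484403-59484652, + strand, 164 to 158 bases before). Gbp3 read 3614, 3331, 1524 and 455, 7.95-fold higher, and Swap70 848, 678, 160 and 126, 6.74-fold higher. Dapl1 stood 24.0-fold lower, so the letters were present on both sides of the comparison. Gbp3 also held the NFAT letters 20 to 14 bases before its start.
Gbp3: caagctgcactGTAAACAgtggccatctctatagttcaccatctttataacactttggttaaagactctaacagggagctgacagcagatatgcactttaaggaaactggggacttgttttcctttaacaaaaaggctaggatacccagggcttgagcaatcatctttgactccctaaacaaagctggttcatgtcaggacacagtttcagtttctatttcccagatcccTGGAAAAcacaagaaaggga
Swap70: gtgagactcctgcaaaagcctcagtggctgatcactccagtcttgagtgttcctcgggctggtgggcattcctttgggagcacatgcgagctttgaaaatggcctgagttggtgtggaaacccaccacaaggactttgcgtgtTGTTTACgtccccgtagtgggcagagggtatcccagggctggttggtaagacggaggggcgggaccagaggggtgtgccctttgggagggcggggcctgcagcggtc
Dapl1: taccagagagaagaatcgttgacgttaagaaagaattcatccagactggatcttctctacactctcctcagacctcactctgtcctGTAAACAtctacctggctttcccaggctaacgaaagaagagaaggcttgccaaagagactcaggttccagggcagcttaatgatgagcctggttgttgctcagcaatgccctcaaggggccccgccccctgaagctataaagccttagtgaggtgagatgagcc

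The STAT letters were found upstream of Il1r2 (chr1:40085843-40086092, + strand, 111 to 103 bases before the start), of Fgl2 (chr5:21372423-21372672, + strand, 36 to 28 bases before), of Tnfrsf18 (chr4:156026072-156026321, + strand, 99 to 91 bases before), of Tnfrsf1b (chr4:145246871-145247120, - strand, 181 to 173 bases before) and of Sgk1 (chr10:21881934-21882183, + strand, 223 to 215 bases before). The first 4 were higher in CD25hi Foxp3+ cells, by 19.5-fold, 14.8-fold, 5.15-fold and 7.48-fold, and Sgk1, a kinase of salt and growth factor signalling, was 5.42-fold lower, so these letters too were present on both sides. They differ in the 3 middle letters of the motif, and Fgl2 also held the AP-1 letters 16 to 10 bases before its start.
Il1r2: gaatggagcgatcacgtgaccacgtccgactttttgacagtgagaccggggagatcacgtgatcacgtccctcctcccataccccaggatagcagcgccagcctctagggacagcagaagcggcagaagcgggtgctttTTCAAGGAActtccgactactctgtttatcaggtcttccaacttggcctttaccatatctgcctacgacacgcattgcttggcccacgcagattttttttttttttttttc
Fgl2: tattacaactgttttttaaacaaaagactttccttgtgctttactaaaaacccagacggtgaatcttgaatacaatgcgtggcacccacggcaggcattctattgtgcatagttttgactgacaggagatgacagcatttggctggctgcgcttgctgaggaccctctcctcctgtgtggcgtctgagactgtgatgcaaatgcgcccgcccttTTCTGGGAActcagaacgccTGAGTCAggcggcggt
Tnfrsf18: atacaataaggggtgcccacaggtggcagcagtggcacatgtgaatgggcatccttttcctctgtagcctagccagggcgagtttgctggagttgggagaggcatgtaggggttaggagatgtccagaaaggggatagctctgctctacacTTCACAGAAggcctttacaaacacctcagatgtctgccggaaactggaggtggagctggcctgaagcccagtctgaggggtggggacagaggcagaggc
Tnfrsf1b: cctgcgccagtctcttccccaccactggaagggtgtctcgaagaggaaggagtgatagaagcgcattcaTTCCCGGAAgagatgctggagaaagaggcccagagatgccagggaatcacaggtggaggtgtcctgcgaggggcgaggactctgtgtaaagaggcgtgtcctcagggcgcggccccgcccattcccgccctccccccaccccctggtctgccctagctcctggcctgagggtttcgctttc
Sgk1: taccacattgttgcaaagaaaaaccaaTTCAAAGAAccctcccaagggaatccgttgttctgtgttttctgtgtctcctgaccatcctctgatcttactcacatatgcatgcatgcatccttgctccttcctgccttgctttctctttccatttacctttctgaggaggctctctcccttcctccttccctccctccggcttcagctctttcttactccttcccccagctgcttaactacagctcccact

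Among all genes at or above the filter intensity on both arrays, the largest differences upward included genes outside the Treg list. Gsta4, a glutathione transferase, read 1184, 262, 82.6 and 38.2, 31.0-fold higher. Capn3, a calcium-dependent protease known from muscle, read 723, 209, 171 and 36.6, 19.8-fold higher, and 498 and 53.7 on a second probe set. Ntn4, a laminin-related netrin, read 730, 86.0, 141 and 38.4, 19.0-fold higher. The second probe set of Ntn4 was dim, at 33.6 and 7.63, a log2 difference of at least 1.73 against 4.25. In these 3 genes and Plagl1 the CD25hi Foxp3+ array was well above all the others. Dusp4, a nuclear MAP kinase phosphatase, read 2090, 1840, 830 and 120, 17.5-fold higher. Nrn1, which encodes neuritin, read 1265, 2091, 643 and 75.4, 16.8-fold higher, and Tiam1, an activator of Rac, 2217, 2079, 1533 and 165, 13.4-fold higher. Those 3 were graded over the populations, with CD25+ Foxp3- cells between the Foxp3+ pair and CD25- Foxp3- cells.

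Cytoskeletal, lipid and matrix genes completed the 25 largest. Coro2a, a coronin, read 977, 721, 295 and 76.8, 12.7-fold higher. Capg, which caps actin filaments, read 3492, 3598, 1407 and 279, 12.5-fold higher. Osbpl3, an oxysterol-binding protein relative, read 556, 1207, 287 and 56.4, 9.87-fold higher. Itih5, an inter-alpha-trypsin inhibitor heavy chain, read 1509, 667, 137 and 138, 10.9-fold higher, and Prg4, the joint lubricant lubricin, 684, 664, 72.0 and 70.3, 9.73-fold higher. Both of these were at the same level in the 2 Foxp3- populations. Slc35d1, a nucleotide sugar transporter, read 763, 290, 107 and 86.1, 8.86-fold higher.

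Of genes below the filter intensity in CD25- Foxp3- cells, the sort markers Foxp3 and Il2ra apart, the largest fold belonged to Cyp4f18, a cytochrome P450 of fatty acid and leukotriene metabolism, which read 980, 49.9, 26.1 and 15.1, 64.9-fold higher. Its next highest reading, in CD25lo Foxp3+ cells, was little above the filter intensity. Sdc4, the heparan sulfate proteoglycan syndecan 4, read 291, 134, 214 and 8.16, at least 28.8-fold higher. Neb, which encodes the muscle protein nebulin, read 182, 330, 13.9 and 9.25, at least 18.0-fold higher, and Lamc1, a laminin chain, 164, 118, 21.0 and 12.6, 13-fold higher. Both were above the filter intensity in the Foxp3+ pair and below it in the Foxp3- pair. Gucy1a1, a subunit of soluble guanylate cyclase, read 424, 460, 182 and 27.7, 15.3-fold higher, and Myo1e, an unconventional myosin, 130, 227, 64.0 and 8.54, at least 12.9-fold higher. The second probe set of Myo1e read 18.1 and 9.14, both below the filter intensity. Folds against readings near the floor are uncertain in size and in rank.

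Apart from the lists of markers of other cell types, resting and naive T cell genes had the lowest median, with 10 of 35 measured members lower and 1 higher, and a median log2 difference of -0.662. All 35 were at or above the filter intensity on both arrays. Pde3b, a phosphodiesterase that degrades cyclic AMP, read 213, 281, 2742 and 6467, 30.4-fold lower. Dapl1 read 163, 159, 639 and 3909, 24.0-fold lower, and Vipr1, a receptor for vasoactive intestinal peptide, 36.6, 46.4, 128 and 766, 20.9-fold lower. In these 3 genes the Foxp3+ pair was lowest and CD25+ Foxp3- cells lay between. Igfbp4, a binding protein of insulin-like growth factors, was among the brightest genes of CD25- Foxp3- cells, at 1266, 412, 1996 and 13217, 10.4-fold lower, with 1342 and 7187 on a second probe set. Tdrp read 191, 58.1, 304 and 2200, 11.5-fold lower, and Rflnb, an actin-binding refilin, 184, 439, 513 and 2076, 11.3-fold lower, with 87.6 and 1302 on a second probe set.

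Smaller differences of the same list included Actn1, an actin-crosslinking alpha-actinin, at 1075 and 2995, Atp1b1, a sodium pump subunit, at 778 and 1978, and Cd55, a complement inhibitor, at 243 and 605. With Lef1, all of these were higher in CD25- Foxp3- cells than in any other population. The member that went the other way was Ccr9, a gut-homing chemokine receptor, at 896, 993, 1154 and 239. Many of the genes that hold T cells at rest were within 2-fold: Il7r, the interleukin 7 receptor, read 3565 and 6659, Satb1 4124 and 6746, Btg1 9251 and 9770 and Ets1 8550 and 8128. Il7r reached -1.17 on the log2 scale after spike control scaling and -1.02 when the median over its probe sets was used. With the spike control scale 14 members of the list were lower.

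**Figure D3:**
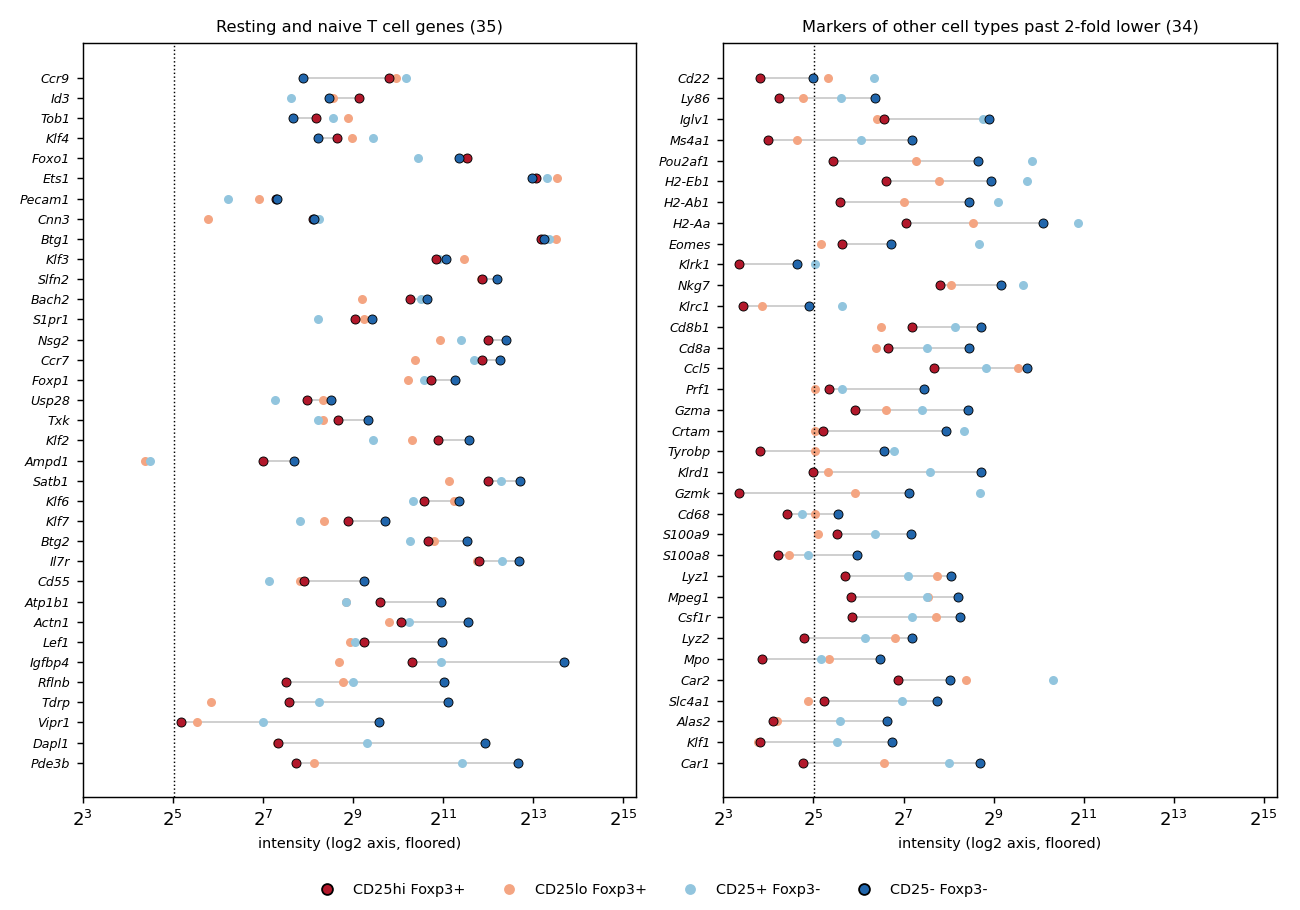
Intensities in the 4 populations on log2 axes (values under 10.1 raised to it, dotted line at the filter intensity of 32.5) for the 35 resting and naive T cell genes on the left and, on the right, for the 34 markers of other cell types that read at least 2-fold lower in CD25hi Foxp3+ cells. On the left Pde3b, Dapl1 and Vipr1 have the longest bars, and many genes lie close to equality; on the right Car1 and the markers of B, CD8 T and NK cells are dimmer in CD25hi Foxp3+ cells, several of them under the filter intensity there.

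Outside that list, large well-measured differences downward included Tgfbr3, the TGF-beta co-receptor betaglycan, at 154, 114, 824 and 1929, 12.6-fold lower, and St6galnac2, a sialyltransferase, at 58.4, 63.2, 836 and 598, 10.2-fold lower. Sema4a, a semaphorin, read 51.0, 69.6, 317 and 497, 9.74-fold lower, with 41.3 and 619 on a second probe set. Hs3st3b1, a heparan sulfate sulfotransferase, read 55.5, 65.4, 238 and 653, 11.8-fold lower. All 4 were low in both Foxp3+ populations and higher in both Foxp3- populations. Chd7, a chromatin remodeller, read 68.8, 82.2, 191 and 601, 8.73-fold lower, Adh1, an alcohol dehydrogenase, 72.4, 55.5, 135 and 688, 9.51-fold lower, and Enc1, an actin-associated kelch protein, 210, 184, 548 and 1711, 8.14-fold lower. Those 3 followed the order of Pde3b and Dapl1, with CD25+ Foxp3- cells intermediate. Pxylp1, at 39.5, 38.0, 132 and 258, Rnf144a, a ubiquitin ligase, at 37.3, 89.0, 190 and 250, and Tmie, at 77.9, 74.1, 132 and 461, were 6.52-fold, 6.71-fold and 5.91-fold lower. Als2cl, at 580, 411, 742 and 2814, and Sgms1, a sphingomyelin synthase, at 386, 987, 884 and 1669, were brighter genes that stood 4.85-fold and 4.33-fold lower, and both had their highest level in CD25- Foxp3- cells.

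Several of the largest differences downward lay in genes of B cells and antigen-presenting cells. Pou2af1, a B cell coactivator, read 43.2, 154, 928 and 400, 9.26-fold lower, Mzb1, an endoplasmic reticulum protein of B and plasma cells, 34.8, 34.9, 179 and 414, 11.9-fold lower, and Igha, the constant region of IgA, 1302, 1472, 5053 and 8511, 6.54-fold lower. The MHC class II genes H2-Aa, at 132, 375, 1877 and 1098, H2-Ab1, at 48.3, 129, 548 and 352, and H2-Eb1, at 98.5, 220, 854 and 490, were 8.32-fold, 7.29-fold and 4.98-fold lower. Yet the invariant chain Cd74 read 894 and 681 and the IgM heavy chain Ighm 8884 and 14192, both within 2-fold, although the median over its probe sets put Ighm at -2.67 on the log2 scale. The B cell surface gene Ms4a1, which encodes CD20, read 15.9, 24.7, 66.7 and 145. The summed intensity of the 9 measured B cell markers was 9254 and 15480, most of it from Ighm, and its part in these differences was not tested.

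Cytotoxic and natural killer genes stood lower in the same array. Klrd1, a lectin-like receptor of NK and CD8 T cells, read 31.7, 40.2, 192 and 422, 13.3-fold lower, Crtam, an adhesion molecule of activated cytotoxic cells, 37.1, 32.9, 324 and 248, 6.67-fold lower, and Gzmk at least 13.7-fold lower at 7.95, 60.6, 416 and 139. Cd8a read 101, 83.7, 185 and 351 and Cd8b1 145, 90.8, 282 and 422, although CD8 was a depletion target. Ccl5 read 204, 747, 453 and 854, 4.19-fold lower, with CD25lo Foxp3+ cells between the levels of the Foxp3- populations. The 17 measured members of this list summed to 1059, 1687, 4318 and 3957. Myeloid genes such as Csf1r, at 57.8 and 305, Lyz2, at 27.8 and 147, and Mpeg1, at 57.4 and 297, and the erythroid genes Car1, at 27.1 and 416, and Slc4a1, at 37.9 and 213, were lower as well.

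Of genes below the filter intensity in CD25hi Foxp3+ cells, Pdlim4, a PDZ and LIM domain protein of the actin cytoskeleton, read 6.48, 6.22, 33.8 and 455, at least 45-fold lower. App, the amyloid precursor protein, read 16.9, 35.7, 183 and 530, 31.3-fold lower. Lrrc75b read 14.2, 13.7, 24.6 and 368, 25.9-fold lower, Mctp2 11.8, 18.3, 121 and 318, 26.9-fold lower, and Atp8b4, a phospholipid flippase, 27.8, 42.0, 201 and 713, 25.7-fold lower. Pdlim4 and Lrrc75b were at or under the filter intensity, or close to it, in all populations but CD25- Foxp3- cells. Slc16a5, a monocarboxylate carrier family member, at 31.9 and 651, Cnga1, a cyclic nucleotide-gated channel, at 31.1 and 531, and Pde5a, a cyclic GMP phosphodiesterase, at 11.1 and 187, were 20.4-fold, 17.1-fold and 16.9-fold lower. Lypd6b, at 23.3 and 403, Ntrk3, a neurotrophin receptor, at 13.1 and 209, and the immunoglobulin segment Igkv15-103, at 6.96 and 173, completed this group with Car1.

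Cell division genes were higher in CD25hi Foxp3+ cells, and many were higher still in CD25+ Foxp3- cells. Of 45 measured genes of mitosis 33 were higher and none lower, with a median log2 difference of 1.35, and of 40 genes of DNA replication 16 were higher and none lower, with a median of 0.895. Counting only genes at or above the filter intensity on both arrays, 30 of 41 and 13 of 35 were higher. Mki67, the proliferation marker Ki-67, read 2923, 4178, 3698 and 818, 3.57-fold higher. Cdk1, the kinase that drives entry into mitosis, read 336, 357, 405 and 85.4, 3.93-fold higher, and Top2a, a DNA topoisomerase, 1329, 1687, 1671 and 434, 3.06-fold higher. The 3 populations other than CD25- Foxp3- cells lay near each other in these genes. A second probe set of Top2a was within 2-fold at 56.6 and 43.0. Birc5, which encodes survivin, read 406 and 117, the checkpoint kinase Bub1b 342 and 88.9, the spindle factor Tpx2 339 and 90.0, and Aurkb, a chromosomal passenger kinase, 118 and a reading under the filter intensity of 15.3.

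Replication genes had their peak in CD25+ Foxp3- cells. The helicase subunits Mcm5, at 3377, 2196, 7619 and 1514, Mcm6, at 3123, 2708, 5429 and 1361, and Mcm3, at 2365, 1798, 5909 and 1132, were 2.23-fold, 2.30-fold and 2.09-fold higher. Rrm2, a subunit of ribonucleotide reductase, read 2229, 2425, 3503 and 661, 3.37-fold higher, Uhrf1, which couples DNA methylation to replication, 406, 283, 846 and 69.0, 5.89-fold higher, and Tk1, a thymidine kinase, 282, 241, 444 and 60.9, 4.62-fold higher. Pcna, the sliding clamp, was within 2-fold at 7299 and 5404. With scaling on the spike controls 24 mitosis and 12 replication genes remained past 2-fold higher, and those lost included Mcm3, Mcm5, Mcm6, Lig1, Plk1 and Aurka. Dtl, at 163 and 28.6, was within 2-fold when the median of its probe sets was used. Among inhibitors of the cycle, Cdkn2c, at 336 and 111, Gadd45g, at 323 and 113, and Rbl2, at 1697 and 774, were higher, as was the kinase Cdk6, at 1260 and 525, and none of 25 measured members was lower.

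**Figure D4:**
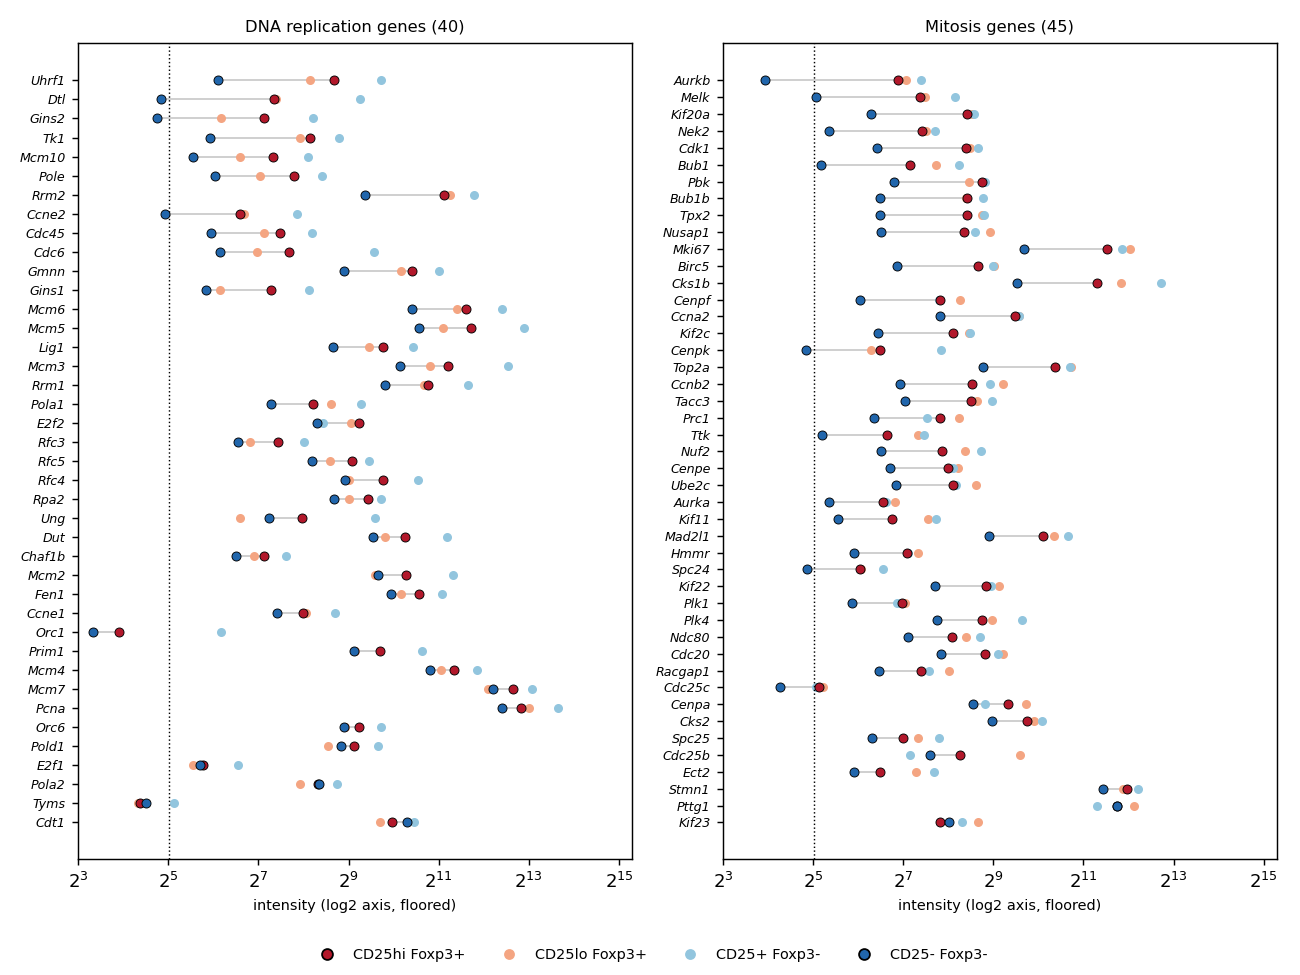
Intensities in the 4 populations on log2 axes (values under 10.1 raised to it, dotted line at the filter intensity of 32.5) for the 40 measured genes of DNA replication on the left and the 45 of mitosis on the right, ordered by the difference. CD25- Foxp3- cells have the lowest point in most rows, CD25+ Foxp3- cells the highest point in most replication rows, and no gene of either list is past 2-fold lower in CD25hi Foxp3+ cells.

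Activation and memory genes were mixed, with 8 of 28 measured members higher and 5 lower. The calcium-binding proteins S100a4, at 2634, 9154, 2205 and 572, and S100a6, at 1503, 4516, 614 and 326, were each 4.60-fold higher, and Ahnak, a large scaffold protein, read 1611, 3800, 1420 and 374, 4.31-fold higher. These 3 were highest in CD25lo Foxp3+ cells. Cd44, the hyaluronan receptor, read 2544, 3260, 2744 and 1175, 2.17-fold higher, a call lost, like that of Lgals1, on the spike control scale. Plp2, a membrane proteolipid, read 2378 and 712. Cd69, an early activation antigen, was level at 1441 and 1754. The lower members were Id2 and the cytotoxic genes Nkg7, at 226 and 572, Ccl5, Klrk1 and Klrc1, of which Klrk1 and Klrc1 were dim, and all but Id2 are also markers of CD8 T and NK cells.

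Genes of the T cell receptor and its proximal signalling hardly differed in level. Of 47 measured members, all at or above the filter intensity on both arrays, none was higher and 2 were lower. Themis, a T cell-lineage signalling adaptor, read 320, 235, 703 and 1496, 4.67-fold lower, and 92.6 and 325 on a second probe set. The other was Cd8a. Cd3d read 9007 and 9886, Fyn 5648 and 6284, and the diacylglycerol kinase Dgka 9033 and 12864. The list's median log2 difference was -0.189, and after spike control scaling 5 members were lower.

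Genes induced early by that receptor showed no common direction, with 5 of 39 higher and 3 lower and a median of 0.009. The higher ones included the regulators of G protein signalling Rgs1, at 3565, 2748, 1647 and 739, 4.82-fold higher, and Rgs16, at 386, 619, 397 and 75.2, 5.14-fold higher. Spry1, a brake on receptor tyrosine kinase signalling, read 141 and 33.9. The phosphatase genes parted, with Dusp4 far higher, Dusp6, at 75 and 211, and Dusp10, at 197 and 559, lower, and Dusp1 level at 3589 and 2946. Fos, at 9863 and 9245, and Junb, at 2644 and 2628, were level. Among NF-kappaB genes 4 of 21 were higher, led by the kinase Map3k8 at 313 and 49.5, and Map3k14 was lower at 128 and 294. Rel, at 109 and 47.4, Nfkb2, at 460 and 221, and Tank, at 2199 and 1064, were below 2-fold on the spike control scale.

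Of 19 measured members of the list of chemokines, their receptors and related receptors, 5 were higher, all of them chemokine receptors, and 4 lower. Of the 13 at or above the filter intensity on both arrays, 3 were higher and 3 lower. Ccr6, a receptor of mucosal and memory cells, read 1862, 1913, 2419 and 245, 7.59-fold higher. Ccr8 read 185, 194, 53.2 and 19.2, 9.64-fold higher, and Ccr4 63.7, 88.5, 34.3 and 7.07, at least 6.30-fold higher, both of them known from Treg cells. Ccr6 did not follow Foxp3, since it was highest in CD25+ Foxp3- cells. Ccr2 read 505, 1519, 360 and 124, but its second probe set was level at 82.6 and 110. Cxcr6 was lower at 73.5, 128, 2148 and 249, and Gpr183, a receptor for oxysterols, at 740 and 1646. The other lower members were the chemokines Ccl5 and Ccl3, the latter at a dim 15.3 and 43.6. The lymph node homing receptor Ccr7 was within 2-fold at 3715 and 4937, and S1pr1, which directs exit from lymph nodes, at 532 and 688.

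Of 24 measured integrin and adhesion genes 9 were higher and 3 lower. Besides Itgae, Itgb8 and Lamc1 these were Epcam, an epithelial adhesion molecule, at 321, 292, 56.7 and 38.2, 8.42-fold higher, although its second probe set read 34.9 and 53.8. Ecm1, an extracellular matrix protein, read 974, 263, 203 and 229, 4.25-fold higher and highest in CD25hi Foxp3+ cells. Alcam read 121 and 44.6, Selp a dim 43.9 and 9.67, and Icam1 637 and 317, the last at the 2-fold line. Itgb3 read 342, 366, 436 and 1125, 3.29-fold lower. Vcam1, at 41.6, 208, 187 and 229, was lower in CD25hi Foxp3+ cells alone, but its second probe set was within 2-fold at 30.4 and 46.4. The leukocyte integrin genes Itgb7, at 9104 and 8515, Itgb2, at 6952 and 6678, and Itgal, at 2614 and 2657, were level. Of the 21 members of the list at or above the filter intensity on both arrays, 6 were higher and 3 lower.

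Proteases and matrix genes had 11 of 26 measured members higher and 3 lower, 6 and none among the 16 at or above the filter intensity on both arrays. Beyond Capn3, Sdc4, Lamc1 and Prg4, the higher ones included Adamts6, a secreted metalloprotease, at 412, 293, 208 and 54.5, 7.55-fold higher, Adam19, at 678 and 215, and Cst7, a cystatin, at 1433 and 395. F13a1, a subunit of clotting factor XIII, read 111 and 20.2. Cathepsins differed little, with Ctse at 6633 and 7170 and Ctss at 7294 and 5889. Among axon guidance genes 5 of 17 were higher, Nrp1 and Ntn4 first, and 2 lower, Sema4a and Sema4f, the latter at 198 and 783.

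Of 16 measured cytokines of effector and regulatory T cells 4 were higher and 3 lower. The lower ones were helper cell cytokines: Il21 read 15.3, 59.8, 1794 and 122, 8.00-fold lower, Il4 11.2, 10.8, 145 and 72.0, 6.43-fold lower, and Ifng 140, 366, 1146 and 288, 2.07-fold lower, just past the line. Their peak was in CD25+ Foxp3- cells. Il2 was close to the floor at 10.7 and 17.3. Beside Il10, Lta and Tgfb1, described above, Csf1 was higher at 101 and 15.5, and Tnf, Mif and Ltb were within 2-fold. Of the 8 members at or above the filter intensity on both arrays, 2 were higher and 1 lower.

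Cytokine receptor genes other than the IL-2 receptor chains gave 4 higher (15.4%) and 3 lower (11.5%) of 26. Il12rb1 read 163 and 32.6 and Il10ra 186 and 90.9, the latter at the line. The TGF-beta receptors parted: Tgfbr1 read 2361, 2664, 1104 and 809, 2.92-fold higher, Tgfbr2 3893 and 6668, within 2-fold, and Tgfbr3 was far lower. Of the TGF-beta and SMAD list 5 of 25 were higher and 1 lower, and its median log2 difference of 0.229 turned to -0.146 among the 20 genes at or above the filter intensity on both arrays. Bmpr2 read 250 and 92.9 and the feedback gene Pmepa1 251 and 107, while Smad3 and Smad4 were level at 1240 and 1058 and at 1476 and 1921.

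The cyclic AMP genes gave 6 higher and 4 lower of 34. Of the 31 at or above the filter intensity on both arrays, 4 were higher and 4 lower. Phosphodiesterases, of which 7 were measured, made up 3 of the 4 lower genes. Beside Pde3b, Pde7a read 390, 386, 1158 and 1110, 2.84-fold lower, with 257 and 902 on a second probe set, and Pde4d 203 and 489, 2.41-fold lower. Pde7a was near equal within each Foxp3 state. The other 4 phosphodiesterases were within 2-fold, Pde4b at 771 and 1190, Pde2a at 1435 and 1305, Pde8a at 243 and 159 and Pde1b at 126 and 86.9. Crem, a cyclic AMP-responsive modulator, read 380, 423, 112 and 144, 2.64-fold higher, and Ptger2, a prostaglandin E2 receptor, 209 and 54.7, 3.82-fold higher. Prkar1b, a regulatory subunit of protein kinase A, was above the filter intensity on the CD25hi Foxp3+ array alone, at 93.2, 9.84, 9.35 and 10.7. Gnas and Prkar1a were level, at 8267 and 7392 and at 3743 and 3432.

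The shares of metabolic and survival genes past 2-fold varied by list, against 7.09% higher and 3.74% lower over all measured genes. Of glycolysis and pentose phosphate genes 5 of 24 were higher (20.8%) and 1 lower (4.17%). Eno3, the muscle enolase, read 1973, 475, 385 and 413, 4.78-fold higher and near equal in the other 3 populations. Slc2a3, a glucose transporter, read 2433, 2964, 744 and 866, 2.81-fold higher. Hk1 read 1240 and 354, Hk2 108 and 37.9, Tpi1 1784 and 650, and Ldha was level at 7257 and 5709. Fabp5, a fatty acid-binding protein, was the 1 higher gene of 19 (5.26%) in fatty acid oxidation and mitochondria, at 1269 and 277. Cholesterol and fatty acid synthesis genes gave 2 higher (7.41%) and 1 lower (3.7%) of 27, close to the shares over all measured genes. Neither higher call, Scd2 at 1092 and 468 and Abca1 at 450 and 225, held on the spike control scale. Of 24 BCL-2 family and apoptosis genes 4 were higher (16.7%) and Fasl lower (4.17%). Bcl2l1, which encodes Bcl-xL, read 492 and 172 and Bid 291 and 94.0, while Mcl1 was level at 9535 and 9219.

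In the PI3K, AKT and mTOR list 4 of 31 were higher (12.9%) and 2 lower (6.45%), against 7.09% and 3.74% over all measured genes. Sesn1, a stress-induced inhibitor of mTORC1, was bright, at 5502, 5847, 1710 and 1857, 2.96-fold higher, and followed Foxp3. Sgk1 read 642, 1352, 952 and 3478, 5.42-fold lower, and Pik3r5, a regulatory subunit of PI3K gamma, 272, 212, 242 and 875, 3.22-fold lower. The lipid phosphatase genes Inpp4b, at 2280 and 978, and Inpp5f, at 1489 and 629, and Phlpp1, at 447 and 221, fell short of 2-fold on the spike control scale. Interferon response genes gave 4 higher (10.3%) and 5 lower (12.8%) of 39. Of the 34 at or above the filter intensity on both arrays, 3 were higher and 2 lower. Gbp7 read 4969 and 1955 beside Gbp3, and Oas2 read 64.2, 59.7, 63.9 and 454, 7.07-fold lower and high in CD25- Foxp3- cells alone. Ly6e, at 13432 and 6998, and Irf1, at 4902 and 5084, were within 2-fold.

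Of the remaining groups, glycosylation genes gave 6 higher and 3 lower of 33. Among the 26 at or above the filter intensity on both arrays, 2 were higher and 2 lower. St3gal6, a sialyltransferase, read 28.5, 33.1, 180 and 242, 8.49-fold lower, with 25.6 and 144 on a second probe set. With St6galnac2 it followed Foxp3, while St8sia1 was 2.31-fold lower at 285 and 659. Ion channels and transporters gave 8 higher and 5 lower of 29, though only 17 were at or above the filter intensity on both arrays. Of these 17, 2 were higher and 3 lower. Slc22a5, a carnitine transporter, read 784, 244, 142 and 220, 3.56-fold higher, Slc22a2, an organic cation transporter, 108, 30.1, 21.6 and 8.19, at least 10.7-fold higher, and Kcnh2, a potassium channel, 111, 25.2, 22.2 and 29.5, 3.76-fold higher. These 3 were highest in CD25hi Foxp3+ cells. The inducible heat shock genes Hspa1a, at 173, 433, 738 and 1039, and Hspa1b, at 997, 2281, 2998 and 4084, were 6.02-fold and 4.10-fold lower, the 2 lower of 20 stress genes, while Hspa8 was level at 24385 and 23425. Thy1 was the 1 lower gene of 17 in T cell identity, at 3531, 3724, 5308 and 8067.

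**Figure D5:**
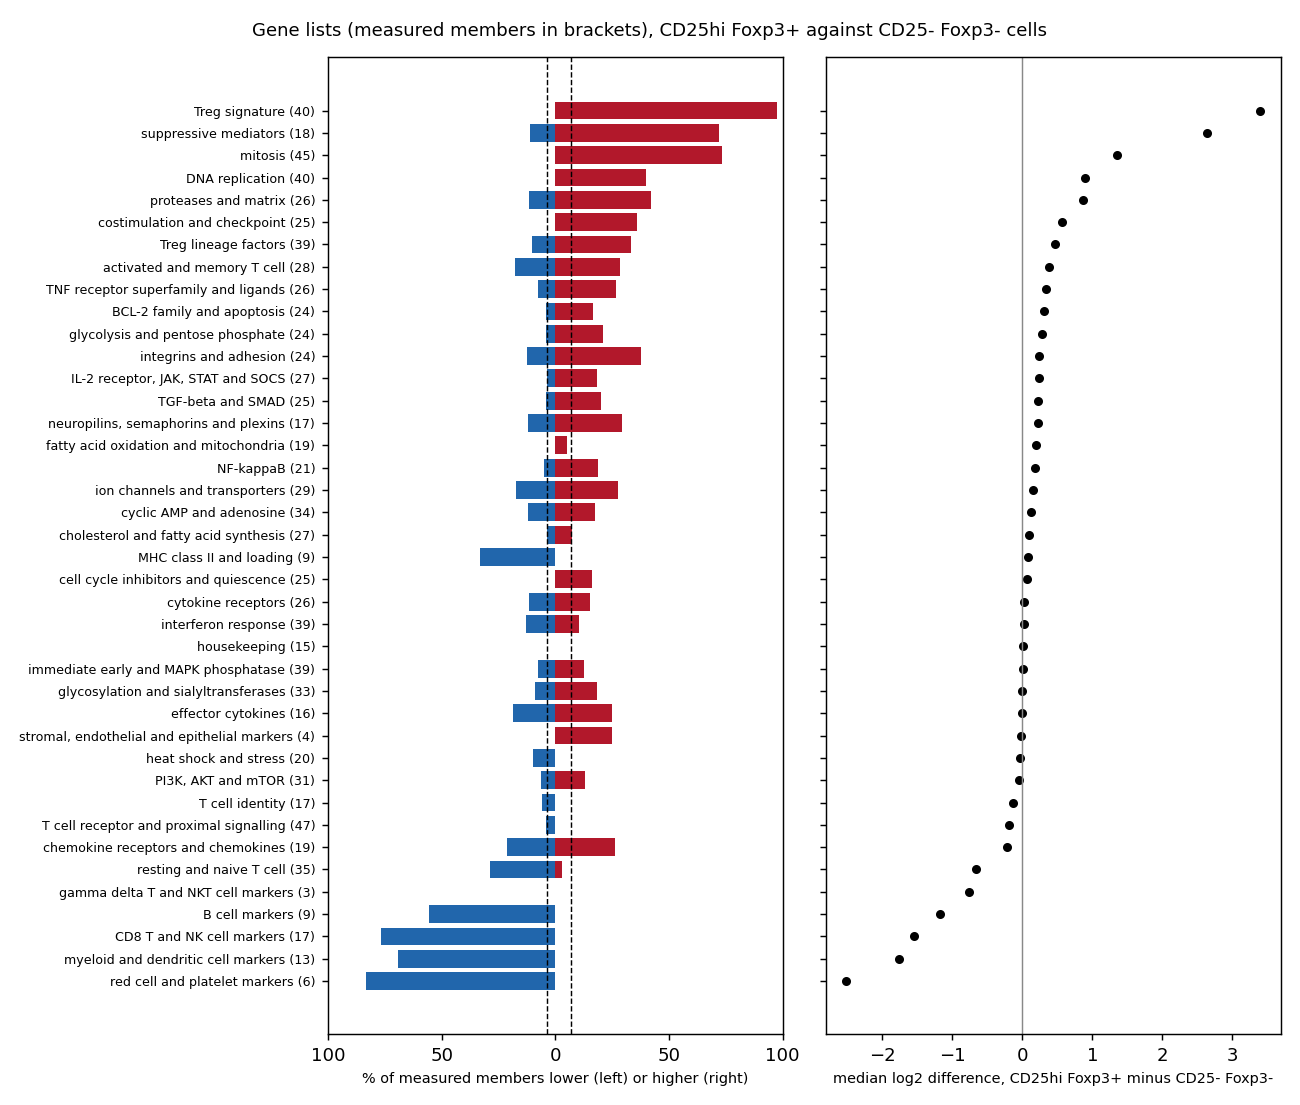
For each gene list, with its number of measured members in brackets, the left panel gives the percentage of members at least 2-fold lower (bars to the left) and at least 2-fold higher (bars to the right) in CD25hi Foxp3+ cells, against CD25- Foxp3- cells, with dashed lines at the shares over all measured genes, 3.74% and 7.09%. The right panel gives the median log2 difference, from 3.39 for the regulatory T cell list to -2.51 for red cell and platelet markers, and each list rests on 1 array a side. Only 3 of the 6 red cell and platelet markers were at or above the filter intensity on both arrays, with a median of -1.145.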

How the data were processed

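RNA of 4 sorted CD4+ T cell populations was measured, each on 1 array. Per the labels, the RNA was amplified in 2 cycles and hybridised to Affymetrix Mouse Genome 430 2.0 arrays. The deposited values are intensities on a linear scale for 45101 probe sets. The authors' summary of probes and their normalization are not given in the sources used here, so neither the summary method nor the background correction behind dim readings is known. Groups were taken from sample titles, and each held 1 array, so no test was possible and none was made.

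Probe sets were named with the platform annotation. The 64 controls were left out of all comparisons. The annotation lists 34958 probe sets with 1 gene and 932 with several, 13 controls among these, and 9160 other probe sets are not in it. By Entrez identifier, 34754 matched the RefSeq table of GRCm38.p6, and no symbol changed. Column medians lay within 10%, so the deposited scale was kept. The floor, filter, choice of probe set and 2-fold rule are described with the results. Differences are of log2 values computed from the deposited intensities. Clone symbols, 328 among the measured genes, were counted without being named.

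The comparison, its 41 gene lists and the alternatives were chosen with earlier results of these data known. The lists share genes. The naming rule took Foxp3 and Il2ra, the 25 largest folds each way among genes at or above the filter intensity on both arrays, the 12 largest each way among those below it on 1 array, the 10 brightest past 4-fold each way, and in each list the members past 2-fold and up to 6 of the brightest others. Cd4, Cd3g, Jak3, Stat5b, Socs4, Socs6, Socs7, Tbx21, Pde1b, Pde2a, Pde4b, Pde8a and the control genes Actb and Gapdh lie outside this rule and were picked with their values known. Alternatives covered scaling, floor, filter, probe set, fold rule and markers of other cells, and scaling on the spike controls was added after the data were seen. Python 3.11.15 with numpy 2.4.6, pandas 2.3.3, scipy 1.17.1, statsmodels 0.14.6 and matplotlib 3.10.9 was used, and the size rule was tested on simulated data.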

Additional observations from a re-analysis of the deposited data

Results flagged for a closer look

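Of 10092 probe sets that are not listed with exactly 1 gene, and so entered no comparison, 2640 were measured. Among them 111 (4.20%) stood 2-fold or more above, and 127 (4.81%) as far below, in the CD25hi Foxp3+ array, against CD25- Foxp3- cells. The probe set 1438466_at read 181, 14.2, 56.6 and 7.35 in Foxp3+ cells, CD25hi and CD25lo, and then in Foxp3- cells, CD25+ and CD25-, at least 17.9-fold higher in the first than in the last, and high in CD25hi Foxp3+ cells alone of the Foxp3+ pair. The probe set 1439496_at read 227, 96.9, 31.7 and 16.8, 13.5-fold higher, and 1425145_at 540, 1203, 83.8 and 59.7, 9.04-fold higher, both in the order of the Foxp3 labels. They were taken up because they carry a signal outside the named genes, and each rests on 1 array a side.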

How the results depend on the processing

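The counts of 682 higher and 360 lower genes stayed within 1.5 times under median scaling (748 and 332), quantile normalization (644 and 389), loess (720 and 347), other floors, no filter, a filter on the 2 arrays, other choices of probe set, and without markers of other cells. They moved under the 1.5-fold rule, to 1402 and 886, the 3-fold rule, to 302 and 167, and the 4-fold rule, to 171 and 107, and when both arrays had to pass the filter, to 431 and 215; these rules keep more or fewer genes by construction. Scaling on the spike controls, added after the data were seen, gave 440 higher and 628 lower; why the spike controls read higher on the CD25hi Foxp3+ array was not tested. Among the called genes of the lists and the named genes, none changed sign under the alternatives run. Of the readings of single list members and named genes under the alternatives, 6855 kept their side of the 2-fold line, 75 lost it and 57 gained it, 45 and 28 of them on the spike control scale. Using the median of probe sets took Dtl, Egr2, Nfkb2, Socs5, Inpp4b, Gpr183, Csf1r, Il18rap, Cd200r1, Plk4 and Slc9a9 within 2-fold, and median scaling took Ier3, Ifng and Oasl2. No replicate could be left out and no paired analysis was possible because each group had 1 array. Of the list medians 13 moved, among them that of the suppression list, from 2.64 to 1.15 without the filter and to 1.14 when both arrays had to pass it. Signal over background limits dim genes, and its part in the larger share of calls in the dimmest tercile was not tested.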
